A study of Mus musculus with 6 samples.

Results

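The nuclear receptor family was examined in mouse hepatocytes sorted by DNA content. A list of 38 receptor genes was matched by symbol to the arrays, using probe sets annotated with 1 gene symbol. Where a gene had several, the brightest by mean log2 intensity was used. A probe set was found for 36 of the 38, out of 12393 genes on the arrays. Nr1h2, which encodes the liver X receptor LXRb, and Nr3c2, which encodes the mineralocorticoid receptor, were not matched and were not analysed here. Of the 36, 32 passed the filter on dim genes, a mean log2 intensity of at least 5.06, and were tested. The other 4 were Vdr, Esr1, Hnf4g and Nr2f1.

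The cells were primary hepatocytes of wild-type C57BL/6 mice at 3 weeks of age, stained alive with the DNA dye Hoechst and sorted into a diploid and a tetraploid fraction. Total RNA taken directly after sorting was hybridised to 6 Affymetrix arrays, 3 per fraction, and the values are RMA intensities, given here as log2. Both groups were wild type, and the labels name no agent beyond the dye. The tetraploid gate may also hold diploid cells after DNA replication, and separate animals are not named for the replicates, so each p-value rests on the spread among these 6 samples, part of which may be technical.

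Nuclear receptors are transcription factors that bind DNA through a zinc finger domain and, for many members, respond to a small lipophilic ligand held in a second domain. Several of them, bound as partners of the retinoid X receptors (RXR), set the metabolic programme of hepatocytes by sensing bile acids, fatty acids, oxysterols and foreign compounds. Others carry the signal of glucocorticoid, thyroid hormone and retinoic acid, keep the daily rhythm, or act without a known ligand and are called orphan receptors.

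Sequences upstream of 3 receptors are shown because the array values below turn on these genes. Nr5a2 and Nr6a1 were among the receptors whose fractions did not overlap, and Nr0b2 had one of the widest spreads between arrays. The window of Nr2c2, the other receptor whose fractions did not overlap, lies within its own gene and is not printed. Each run holds the 250 bases before the most upstream listed start, 5′ to 3′ on the strand of the gene, from RefSeq's tables of build GRCm38.p6. The windows are chr1:136960449-136960698 on the minus strand for Nr5a2, chr2:38926462-38926711 on the minus strand for Nr6a1, and chr4:133553126-133553375 on the plus strand for Nr0b2. Capitals mark exact matches on either strand to AGGTCA, the hexamer that most receptors of the family bind, to TCAAGG, the core of the site bound by the NR5A receptors, or to CACGTG, the E-box of the clock factors.
Nr5a2: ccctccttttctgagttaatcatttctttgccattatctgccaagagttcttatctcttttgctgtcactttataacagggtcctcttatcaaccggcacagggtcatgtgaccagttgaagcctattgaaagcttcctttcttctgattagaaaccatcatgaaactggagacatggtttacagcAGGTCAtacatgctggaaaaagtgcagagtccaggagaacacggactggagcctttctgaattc
Nr6a1: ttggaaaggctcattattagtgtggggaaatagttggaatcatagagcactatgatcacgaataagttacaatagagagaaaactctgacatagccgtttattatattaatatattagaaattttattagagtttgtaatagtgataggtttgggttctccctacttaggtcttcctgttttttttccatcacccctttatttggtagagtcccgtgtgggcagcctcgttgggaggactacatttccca
Nr0b2: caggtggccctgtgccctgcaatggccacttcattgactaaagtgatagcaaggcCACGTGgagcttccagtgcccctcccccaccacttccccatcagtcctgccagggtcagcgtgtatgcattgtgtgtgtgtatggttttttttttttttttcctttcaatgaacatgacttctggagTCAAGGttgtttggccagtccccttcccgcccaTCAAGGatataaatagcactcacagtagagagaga

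AGGTCA stood 64 to 59 bases before the start of Nr5a2. In Nr0b2, a known target of the NR5A receptor encoded by Nr5a2, TCAAGG stood 68 to 63 and again 35 to 30 bases before the start, and CACGTG stood 195 to 190 bases before it. The window of Nr6a1 held none of these letters. The AGG of the first 2 motifs is shared, so their matches can overlap in other promoters. Of the receptors, 34 had a window in the tables, 6 of which (17.6%) held AGGTCA, 4 (11.8%) TCAAGG and 2 (5.88%) CACGTG. Over the windows of 27025 genes of the same length, the shares were 13.8%, 12.5% and 6.05%. A match of letters is a description and does not show binding.

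The arrays resembled each other closely, and the 15 pairs of arrays had Pearson correlations of 0.992 to 0.997 over their probe sets. Hepatocyte genes were bright in both fractions. Albumin (Alb) read between 15.54 and 15.58 on the log2 scale on the 6 arrays, and 4 of 10 tested hepatocyte markers had a higher mean in the tetraploid fraction. Markers of other liver cells were present at far lower summed intensities, and a difference between fractions in the share of such cells cannot be told apart from a difference in RNA per cell in these bulk samples. For endothelial cells, 8 of 10 tested markers had a higher tetraploid mean, and the sum over 14 markers ran from 1189 to 1312 on the diploid and from 1268 to 1500 on the tetraploid arrays, with Pecam1, Tek, Tie1 and Emcn among the dim genes. For macrophages, 1 of 7 tested markers had a higher tetraploid mean, and the sums ran from 513 to 581 and from 464 to 551, with Cd68, Vsig4, C1qb and C1qc dim. For stellate cells and fibroblasts it was 4 of 7, with sums from 912 to 1027 and from 983 to 1019 and Lrat, Col1a1, Col3a1 and Hgf dim. For bile duct cells it was 1 of 3, with sums from 195 to 231 and from 196 to 207. Of 9 leukocyte markers with a probe set, only Cd3e passed the filter. The part of these markers in the receptor values was not tested.

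The order of the receptors is one of probe set brightness, which depends on the probes as well as on the transcript, so it does not rank transcript abundance. Hnf4a, which encodes the regulator that maintains hepatocyte identity, had the brightest probe set, with a mean of 12.67 that exceeded 97.2% of all genes. Nr1d2, encoding the clock repressor REV-ERBb, came next at 11.78, followed by the bile acid receptor gene Nr1h4 (FXR) at 10.76, Ppara, for the fatty acid sensor PPARa, at 10.72, and the glucocorticoid receptor gene Nr3c1 at 10.31. Nr5a2, Rxra, Rora, Nr2f6 and Nr1i3 completed the 10 receptors above the 80th percentile of all genes. When all probe sets of a gene were averaged instead, 8 of these 10 remained among the 10 brightest. At the other end, Thrb, Ppard, Nr6a1, Nr5a1 and Rara passed the filter with means below 6, close to the cutoff, where differences are compressed.

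**Figure D1:**
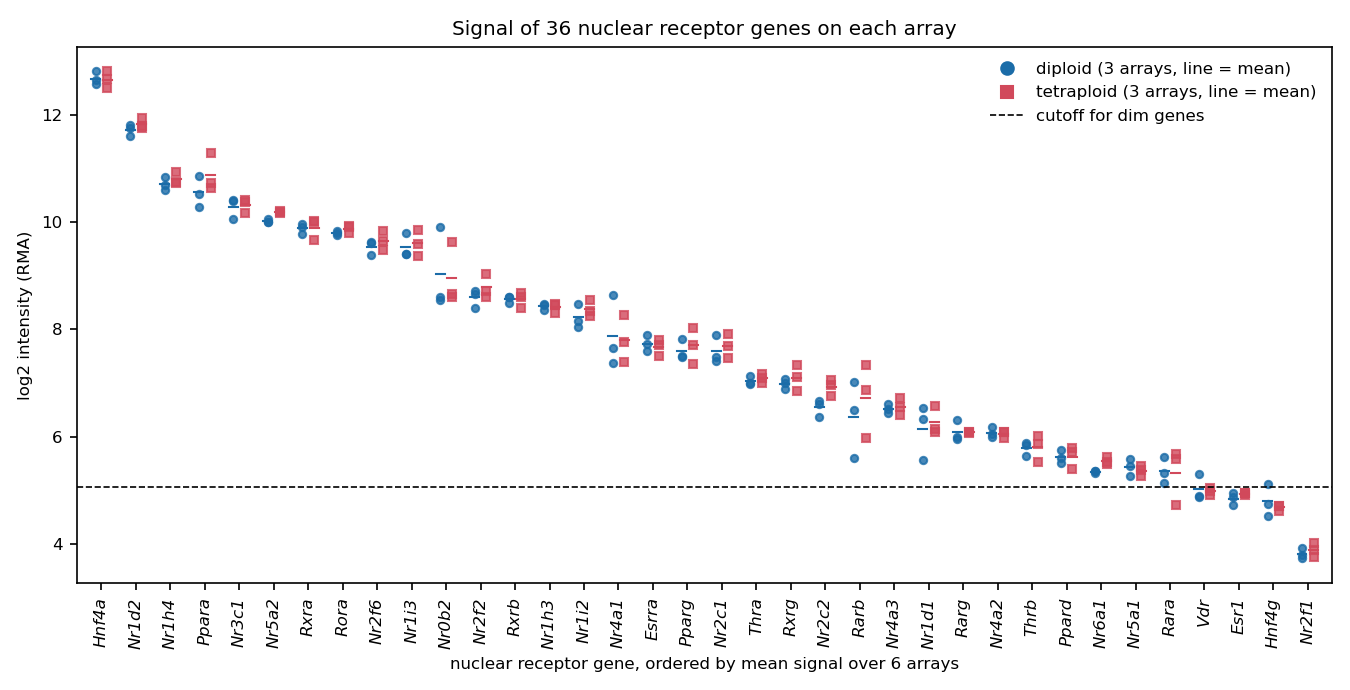
Log2 RMA intensity (vertical axis) of the 36 receptor genes with a probe set (horizontal axis, ordered by mean signal) on each of the 6 arrays. Circles are the 3 diploid and squares the 3 tetraploid arrays, short lines are fraction means, and the dashed line is the filter at 5.06, below whose mean level lie Vdr, Esr1, Hnf4g and Nr2f1. The fractions of most receptors lie on top of each other, while Nr0b2, Nr4a1 and Rarb are spread over more than 1 log2 unit within at least 1 fraction.

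No receptor differed between tetraploid and diploid cells past the threshold. By limma over 9295 genes, 0 of the 32 tested receptors had an adjusted p under 0.05, where 0% of all genes did, and the smallest adjusted p among them was 0.638. At an unadjusted limma p under 0.05 there were 3 receptors, all higher in tetraploid cells, against 2.32% of all genes in that direction, and 0 lower, against 3.85%. The same 3, Nr2c2, Nr5a2 and Nr6a1, were the only receptors whose 3 tetraploid values all lay outside the diploid range, where 12.3% of all genes had such fractions and 5.22% had them with the tetraploid values higher. At an unadjusted limma p under 0.05 in either direction, the share of all genes was 6.18%. The tetraploid mean was higher for 22 receptors and lower for 10, and their median log2 difference, tetraploid minus diploid, was 0.06. Of all genes tested, 47.8% had a higher tetraploid mean and the median was -0.006.

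The count of 3 at an unadjusted p fell to 1, Nr2c2, without diploid replicate 1, without diploid replicate 2 or without tetraploid replicate 2. Without diploid replicate 3 it was again 3, but with Ppara and Nr1i2 in place of Nr5a2 and Nr6a1. The share of all genes at that p ran from 4.07% to 6.87% over these settings. For 25 of the 32 receptors the 95% interval of the difference lay within a 1.5-fold change either way, and for 30 within a 2-fold change. The 7 with wider intervals were Nr0b2, Nr1d1, Nr2c2, Nr4a1, Ppara, Rara and Rarb, of which Nr0b2 and Rarb reached past 2-fold.

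**Figure D2:**
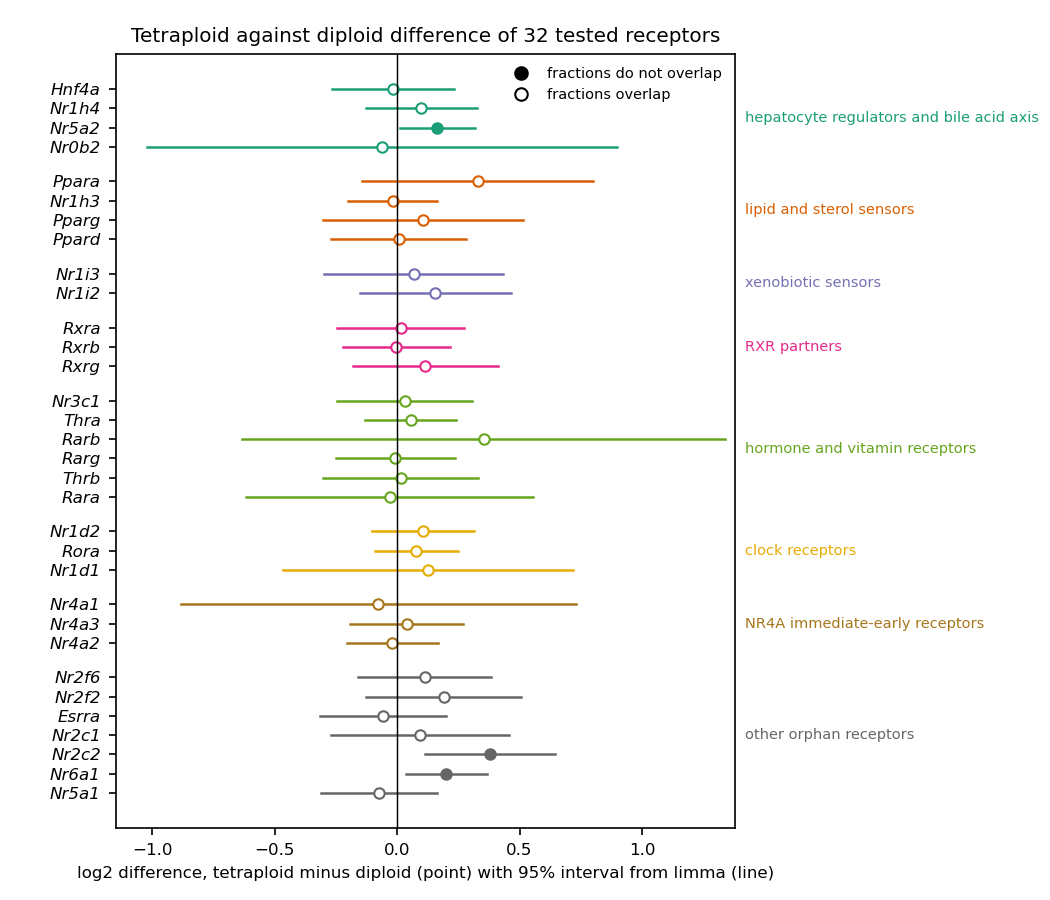
Log2 difference, tetraploid minus diploid (horizontal axis), of the 32 tested receptors, grouped by role. Points are differences of the means over 3 arrays per fraction, filled where the fractions did not overlap, and lines are 95% intervals from limma. The filled points are Nr5a2, Nr2c2 and Nr6a1, all above 0, and the widest intervals belong to Nr0b2 and Rarb.

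Nr2c2, which encodes the orphan receptor TR4, had the largest difference of the 32 by the brightest probe sets on all 6 arrays. Its log2 intensity was 6.36, 6.60 and 6.67 on diploid replicates 1 to 3 and 6.75, 7.05 and 6.97 on tetraploid replicates 1 to 3. All tetraploid arrays lay above all diploid arrays. The difference was 0.38 ± 0.11 (SE, n = 3 per fraction), a 1.30-fold higher level with a 95% interval from 1.08 to 1.56 and a limma adjusted p of 0.638. A second probe set, at a mean of 6.27, differed by 0.22, and the other 2, both below the dim cutoff, by -0.02 and -0.11. With the mean over its probe sets Nr2c2 differed by 0.12. Among the receptors that then differed by more were Nr2f2, Rarb at 0.35, Ppara at 0.33, Nr3c1 at 0.31 and Nr1d2 at 0.28. Without diploid replicate 1 Nr2c2 differed by 0.29, less than Rarb, Nr0b2 at 0.38, Nr1d1 at 0.32 and Nr4a1 at 0.30. Without diploid replicate 3 it differed by 0.44, less than Ppara at 0.48. Rarb also differed by more without diploid replicate 2 or tetraploid replicate 2, and Ppara without tetraploid replicate 3.

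By their brightest probe sets, the orphan receptors Nr2c1, Nr2f6, Nr2f2 and Esrra had overlapping fractions. Nr2c1, encoding the paralog TR2, read from 7.42 to 7.91 over the 6 arrays and differed by 0.09 ± 0.16. Nr2f6, for the COUP-TF relative EAR2, differed by 0.11 ± 0.12, with a second bright probe set at -0.07. Nr2f2, which encodes COUP-TFII, a receptor best known from endothelial and stromal cells, differed by 0.19 ± 0.14 (SE, n = 3 per fraction), and its 2 dimmer probe sets by 0.33 and 0.38. With the mean over its probe sets it had an unadjusted limma p under 0.05 and fractions apart. The 10 tested endothelial markers differed by -0.24 to 0.35, with a median of 0.17, and the 2 brightest, Fcgr2b and Clec4g, each by 0.34. The part of endothelial RNA in the value of Nr2f2 was not tested. Nr2f1, for COUP-TFI, averaged 3.81 ± 0.10 on the diploid and 3.89 ± 0.14 on the tetraploid arrays (SD, n = 3), brighter than 1.83% of all genes only. Esrra, a receptor that governs mitochondrial genes with PGC-1 coactivators, differed by -0.06 ± 0.11.

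Nr6a1, the gene of the germ cell nuclear factor GCNF, was at 5.32, 5.36 and 5.35 on the diploid and at 5.52, 5.63 and 5.49 on the tetraploid arrays. The fractions were apart, but at a brightness near the dim cutoff. It differed by 0.20 ± 0.07 (SE, n = 3 per fraction), with a limma adjusted p of 0.764, and a second probe set at a mean of 5.04, just below the cutoff, differed by -0.11. Nr5a1, whose product SF-1 directs steroid production in adrenal and gonad, averaged 5.44 ± 0.16 on the diploid and 5.36 ± 0.10 on the tetraploid arrays (SD, n = 3).

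In the bile acid axis, FXR senses bile acids and induces Nr0b2, whose product SHP lacks a DNA-binding domain and represses bile acid synthesis, while LRH-1, encoded by Nr5a2, activates both SHP and the synthesis enzymes. Hnf4a was at 12.57, 12.65 and 12.82 on the diploid and 12.50, 12.82 and 12.67 on the tetraploid arrays. The fractions overlapped fully, and the difference was -0.02 ± 0.11, with a fold change between 0.831 and 1.17 at 95% confidence. Its probe set can match several transcripts, and the other 3, at means of 11.45, 8.89 and 7.17, differed by 0.16, 0.45 and 0.18, so the sign of Hnf4a depends on the probe set. Hnf4g, its paralog of the gut and kidney, was dim at 4.79 ± 0.30 and 4.68 ± 0.05 (SD, n = 3).

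Nr1h4 read 10.60, 10.69 and 10.85 on the diploid and 10.75, 10.95 and 10.74 on the tetraploid arrays. These values overlapped, with a difference of 0.10 ± 0.10 (SE, n = 3 per fraction). Nr5a2 read 10.003, 10.07 and 10.01 against 10.17, 10.21 and 10.20. It was among the steadiest genes on the arrays, with a residual SD of 0.03 that was smaller than that of all but 1.69% of genes, and its fractions were apart. The difference was 0.16 ± 0.07, a 1.12-fold higher level with a limma adjusted p of 0.791. Of its other probe sets, those at means of 9.92 and 8.39 differed by 0.08 and 0.09, and a dim one by -0.14.

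Nr0b2 was high on 1 array of each fraction. It read 9.91 on diploid replicate 1 and 9.63 on tetraploid replicate 1, but between 8.55 and 8.67 on the remaining 4 arrays. The fractions overlapped, and the difference was -0.06 ± 0.41 (SE, n = 3 per fraction), with a 95% interval from -1.02 to 0.90. Without diploid replicate 1 it was 0.38 and without tetraploid replicate 1 it was -0.39. Cyp7a1, the rate-limiting enzyme of bile acid synthesis and a gene that SHP represses, was chosen for comparison after its values were seen. It was lowest on the same arrays, at 11.34 and 11.32, against 11.90 to 12.43 on the others. Cyp8b1, another gene of this synthesis, was lowest on neither of these arrays within its fraction. It read 10.67, 10.47 and 10.70 on the diploid and 10.45, 10.43 and 10.43 on the tetraploid arrays.

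Among lipid and sterol sensors, Ppara had the largest difference. It was at 10.29, 10.53 and 10.86 on the diploid and 10.65, 11.29 and 10.73 on the tetraploid arrays. Diploid replicate 3 lay above 2 of the tetraploid arrays, so the fractions overlapped. The difference was 0.33 ± 0.20 (SE, n = 3 per fraction), with a limma adjusted p of 0.855 and a 95% interval from -0.14 to 0.80. Without tetraploid replicate 2 it was 0.13, and without diploid replicate 3 it was 0.48. Pparg, for the adipogenic receptor that is also made by macrophages and endothelial cells, read between 7.36 and 8.03 and differed by 0.11 ± 0.17. Ppard, for the most widely expressed PPAR, was near the dim cutoff and differed by 0.007 ± 0.118. The oxysterol receptor gene Nr1h3 (LXRa) was steady at 8.36, 8.47 and 8.46 against 8.31, 8.45 and 8.47, a difference of -0.02 ± 0.08.

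The xenobiotic sensors CAR and PXR, which induce drug-metabolising enzymes, followed the arrays more than the fractions. Nr1i3, encoding CAR, read 9.41, 9.40 and 9.81 on the diploid and 9.37, 9.86 and 9.59 on the tetraploid arrays. Nr1i2, encoding PXR, read 8.05, 8.15 and 8.48 against 8.25, 8.56 and 8.34. Both were highest on diploid replicate 3 and tetraploid replicate 2, and both fractions overlapped. The differences were 0.07 ± 0.16 for Nr1i3 and 0.16 ± 0.13 for Nr1i2 (SE, n = 3 per fraction), and a second probe set for Nr1i2 differed by 0.11. Of their shared partners, Rxra read 9.79, 9.91 and 9.96 against 9.67, 10.03 and 9.997 and differed by 0.01 ± 0.11, with a second probe set at -0.07. Rxrb differed by -0.002 ± 0.093 and Rxrg, best known from muscle and brain, by 0.12 ± 0.13.

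By their brightest probe sets, hormone and vitamin receptors had overlapping fractions. Nr3c1 was at 10.42, 10.39 and 10.06 on the diploid and 10.41, 10.17 and 10.38 on the tetraploid arrays, a difference of 0.03 ± 0.12 (SE, n = 3 per fraction). A probe set at a mean of 9.51 differed by 0.06, while another at 5.63, above the cutoff, differed by 0.85, so these probe sets disagree on size. With the mean over its probe sets Nr3c1 differed by 0.31, with an unadjusted limma p under 0.05 and fractions apart. Thra, for thyroid hormone receptor a, differed by 0.06 ± 0.08, with a second probe set at -0.07. Thrb, for the receptor form that dominates in liver, was at 5.88, 5.85 and 5.63 against 5.52, 5.87 and 6.00, close to the dim cutoff, and differed by 0.01 ± 0.14. Vdr, the vitamin D receptor, was dim at 5.02 ± 0.25 and 4.98 ± 0.06 (SD, n = 3). Esr1, for oestrogen receptor a, was dim too, with 4.94, 4.72 and 4.87 on the diploid and 4.95, 4.95 and 4.91 on the tetraploid arrays.

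Of the retinoic acid receptors, Rarb swung most, over a range of 1.72 log2 units. Its values were 7.01, 6.50 and 5.61 on the diploid and 7.33, 5.98 and 6.87 on the tetraploid arrays. Diploid replicate 3 and tetraploid replicate 2 were low, the first replicate of each fraction was high, and the difference was 0.35 ± 0.42 (SE, n = 3 per fraction). Rarb is known from stellate cells, which store retinoids. Decorin (Dcn), among the 2 brightest tested stellate cell and fibroblast markers, was highest and lowest on the same arrays as Rarb within the diploid and within the tetraploid fraction, at 7.08, 6.82 and 6.34 and at 7.50, 6.70 and 6.90. Reelin (Reln), the other, was not, at 8.84, 8.68 and 8.80 and at 8.84, 8.96 and 8.87. The part of stellate cell RNA in the values of Rarb was not tested. Rara differed by -0.03 ± 0.25 and Rarg by -0.007 ± 0.104, with a second probe set of Rarg at -0.23.

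The clock receptors form a loop in which RORa activates and the REV-ERB repressors shut off Arntl, the gene of the core clock activator BMAL1. Nr1d1 (REV-ERBa) read 6.54, 5.56 and 6.32 on the diploid and 6.57, 6.15 and 6.08 on the tetraploid arrays. Its residual SD of 0.41 exceeded that of 98.2% of genes, and the difference was 0.12 ± 0.25 (SE, n = 3 per fraction). The brighter Nr1d2 was steadier, at 11.61, 11.76 and 11.82 against 11.76, 11.95 and 11.80, and differed by 0.10 ± 0.09. A second, dimmer probe set of Nr1d2 differed by 0.46. Rora read 9.81, 9.83 and 9.75 against 9.92, 9.91 and 9.79 and differed by 0.08 ± 0.07. The other probe sets of Rora, at means of 8.95 and 5.44, differed by 0.23 and -0.04. All 3 means by the brightest probe sets were higher in tetraploid cells with overlapping fractions. Arntl and the clock repressor gene Cry1, both named after their values were seen, were lowest on diploid replicate 3, at 6.18 and 4.84, and on tetraploid replicate 2, at 6.18 and 5.05. On the other arrays Arntl read 7.05 to 7.50 and Cry1 5.38 to 6.21.

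The NR4A receptors are made within minutes of a stimulus as immediate-early genes. Nr4a1 (NUR77) read 8.64, 7.65 and 7.37 on the diploid and 8.27, 7.39 and 7.76 on the tetraploid arrays, highest on the first replicate of each fraction, and differed by -0.08 ± 0.35 (SE, n = 3 per fraction). The sign followed single arrays, with 0.30 without diploid replicate 1 and -0.31 without tetraploid replicate 1. Nr4a2 and Nr4a3 were steadier and differed by -0.02 ± 0.08 and 0.04 ± 0.10. Other immediate-early genes were only in part alike, as values chosen after they were seen show. Atf3 was also highest on both first replicates, at 6.48 and 6.73 against 5.86 to 6.21 elsewhere. Egr1 was low on diploid replicate 2 and tetraploid replicate 3, at 11.87 and 12.09, and between 12.61 and 12.71 on the other arrays.

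Across the family the arrays within a fraction differed more than for most genes. The median residual SD was 0.16 over the 32 receptors and 0.12 over all genes tested. Of the receptors, 8 had a residual SD in the top 10% of all genes, namely Rarb, Nr0b2, Nr4a1, Nr1d1, Rara, Ppara, Pparg and Nr1i3. A group of 9 receptors was highest on diploid replicate 3 and tetraploid replicate 2, a share of 28.1% against 17.8% of all genes. It held Hnf4a, Nr1h4, Ppara, Nr1i2, Nr1i3, Rxra, Nr1d2, Nr2c1 and Nr2c2, and 7 of the 9 were lowest on the first replicate of both fractions. Ppargc1a, the gene of the coactivator PGC-1a, chosen after its values were seen, was highest on the same arrays, at 10.06 and 10.05, and lowest on both first replicates, at 8.83 and 8.89. Another 9 receptors, 28.1% against 20.5% of all genes, were highest on the first replicate of both fractions, among them Nr0b2, Nr4a1, Rarb, Nr1d1, Nr3c1 and Pparg. These shares describe 6 arrays, and receptors are not replicates.

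**Figure D3:**
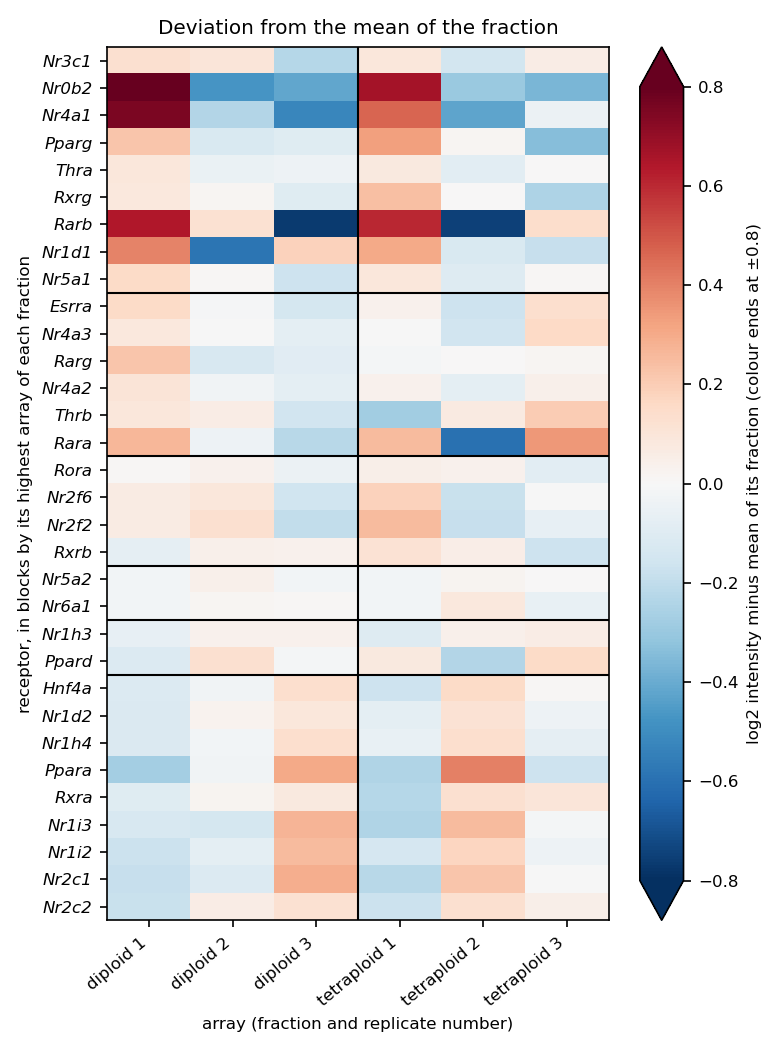
Log2 intensity minus the mean of its fraction for the 32 tested receptors (rows) on the 6 arrays (columns), with colours ending at ±0.8. Rows are blocked by the array of each fraction on which the receptor was highest. The 9 receptors of the bottom block, from Hnf4a to Nr2c2, are highest on diploid 3 and tetraploid 2, and the 9 of the top block, which holds Nr0b2, Nr4a1 and Rarb, are highest on both first replicates.

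Corepressors are the proteins through which receptors silence genes, and coactivators those through which they activate them. Of 10 tested corepressor genes, 8 had a higher tetraploid mean and 3 had fractions that did not overlap, all higher, against 5.22% of all genes. Nrip1, for the ligand-dependent corepressor RIP140, was at 7.51, 7.68 and 7.56 on the diploid and 7.91, 7.94 and 7.90 on the tetraploid arrays, a difference of 0.33 ± 0.07 with a limma adjusted p of 0.375. Lcor, for another ligand-dependent corepressor, was at 5.24, 5.58 and 5.61 against 5.87, 5.90 and 5.85, a difference of 0.40 ± 0.11 with a limma adjusted p of 0.516, and Rcor1 differed by 0.15 ± 0.09 (SE, n = 3 per fraction). The mean of Lcor, 5.68, was close to the dim cutoff. By limma, 0 of the 10 passed over all genes and 2 had an unadjusted p under 0.05, both higher, against 2.32% of all genes, and the median difference was 0.05. Of 14 tested coactivator genes, 6 had a higher and 8 a lower mean, 0 passed and 0 had an unadjusted limma p under 0.05, with a median of -0.02, which was 0.085 without diploid replicate 3. Crebbp, Ncoa6 and Carm1, which had the smallest p-values among them, differed by -0.12, 0.10 and -0.10.

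Known target genes of the receptors were counted in the same way, and 0 passed over all genes in any of these lists by limma. Of 25 tested PPARa targets, 21 had a higher tetraploid mean, with a median of 0.07, 0 at an unadjusted limma p under 0.05 and 1 with fractions apart, higher, against 5.22% of all genes. The fatty acid hydroxylase gene Cyp4a14 and the pantetheinase gene Vnn1 differed by 0.25 ± 0.14 and 0.27 ± 0.21, and the hormone gene Fgf21 by -0.21 ± 0.15 (SE, n = 3 per fraction). The fractions of Cyp4a14, Vnn1 and Fgf21 overlapped, and Fgf21, at a mean of 5.61, was close to the dim cutoff. Without tetraploid replicate 2 the median was 0.008. The 16 tested FXR targets had a median of -0.03, with 10 lower and 6 higher, and 3 had fractions apart, all lower, against 7.08% of all genes. The list also holds Cyp7a1 and Cyp8b1, genes of the bile acid synthesis that SHP represses, so its members need not share a direction. Without tetraploid replicate 3 or diploid replicate 3 the median was -0.10, and without diploid replicate 2 it was 0.0092. Apoc2, for the cofactor of lipoprotein lipase, differed by -0.21 ± 0.07 (unadjusted limma p 0.0230), the sterol hydroxylase gene Cyp8b1 by -0.18 ± 0.08 and the phospholipid exporter gene Abcb4 by -0.19 ± 0.09. Apoc2 and Cyp8b1 had fractions apart, while those of Abcb4 overlapped.

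Targets of CAR and PXR went in both directions. Of 23 tested, 13 had a higher and 10 a lower mean, and the median was 0.04. At an unadjusted limma p under 0.05 there were 3 higher and 2 lower, against 2.32% and 3.85% of all genes. Cyp2b10, the classical CAR target, read 8.87, 8.89 and 9.33 on the diploid and 8.34, 8.76 and 8.54 on the tetraploid arrays. All tetraploid values were lower, and the difference was -0.48 ± 0.15 (SE, n = 3 per fraction) with a limma adjusted p of 0.702. The probe set of Cyp2b10, like that of Hnf4a, can match several transcripts. The exporter gene Abcc3 differed by -0.26 ± 0.09 and Cyp2c37, another cytochrome P450 gene, by 0.20 ± 0.07.

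Targets of LXR and HNF4a had medians of -0.02 and 0.01, with 7 of 15 and 13 of 24 higher. The 24 include Trh, the thyrotropin-releasing hormone gene, which at -0.09 had the lowest difference. It entered through a synonym in place of the listed transferrin gene Trf and was not listed as an HNF4a target. Among LXR targets the smallest p-values belonged to Myo5b, for a motor protein of membrane traffic, at -0.14 ± 0.09, the lipogenic enzyme gene Fasn at -0.14 ± 0.15 and the phospholipid enzyme gene Lpcat3 at -0.09 ± 0.11 (SE, n = 3 per fraction). Among HNF4a targets they belonged to Mttp, which loads lipid onto lipoproteins, at 0.15 ± 0.11, the apolipoprotein gene Apoc3 at -0.08 ± 0.07 and the lipid droplet gene Hsd17b13 at 0.10 ± 0.09. Hsd17b13 had a mean of 5.09, next to the dim cutoff.

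Glucocorticoid receptor targets, with 9 of 20 higher, had a median of -0.009 that moved with single arrays. It was -0.25 without diploid replicate 1, -0.23 without tetraploid replicate 2, 0.11 without diploid replicate 3 and 0.19 without tetraploid replicate 1. Gadd45g, for a stress-induced growth regulator, differed by -0.28 ± 0.24, the aminotransferase gene Got1 by -0.26 ± 0.22 and Lcn2, for the acute-phase protein lipocalin, by -0.33 ± 0.33 (SE, n = 3 per fraction).

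Of 11 thyroid hormone targets, 6 were higher. Thrsp, a lipogenic gene induced by thyroid hormone, read 12.28, 12.41 and 12.46 against 11.89, 12.17 and 12.06, with fractions apart and a difference of -0.35 ± 0.10 (limma adjusted p 0.553). The deiodinase gene Dio1 differed by -0.20 ± 0.12 and the malic enzyme gene Me1 by 0.06 ± 0.08 (SE, n = 3 per fraction). Retinoid genes, with 5 of 12 higher, had a median of -0.03. Ret, for a receptor tyrosine kinase, differed by -0.22 ± 0.12, the retinol dehydrogenase gene Rdh10 by 0.12 ± 0.08 and Bco1, for the enzyme that cleaves carotene, by -0.16 ± 0.11. Ret, at a mean of 5.57, was close to the dim cutoff.

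Clock genes, with 8 of 14 higher, had a median of 0.01. The clock repressor gene Per3 differed by -0.22 ± 0.14, the output factor gene Dbp by -0.10 ± 0.09 and Clock, for the partner of BMAL1, by 0.13 ± 0.12 (SE, n = 3 per fraction). Immediate-early genes, with 12 of 18 higher, had a median of 0.08, which was -0.034 without diploid replicate 2, 0.029 without tetraploid replicate 2, 0.050 without tetraploid replicate 1 and 0.14 without tetraploid replicate 3. The zinc finger factor gene Klf6 differed by 0.27 ± 0.14, Ier3 by 0.16 ± 0.09 and the zinc finger factor gene Egr3 by -0.15 ± 0.09. Ier3, at a mean of 5.23, was close to the dim cutoff.

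**Figure D4:**
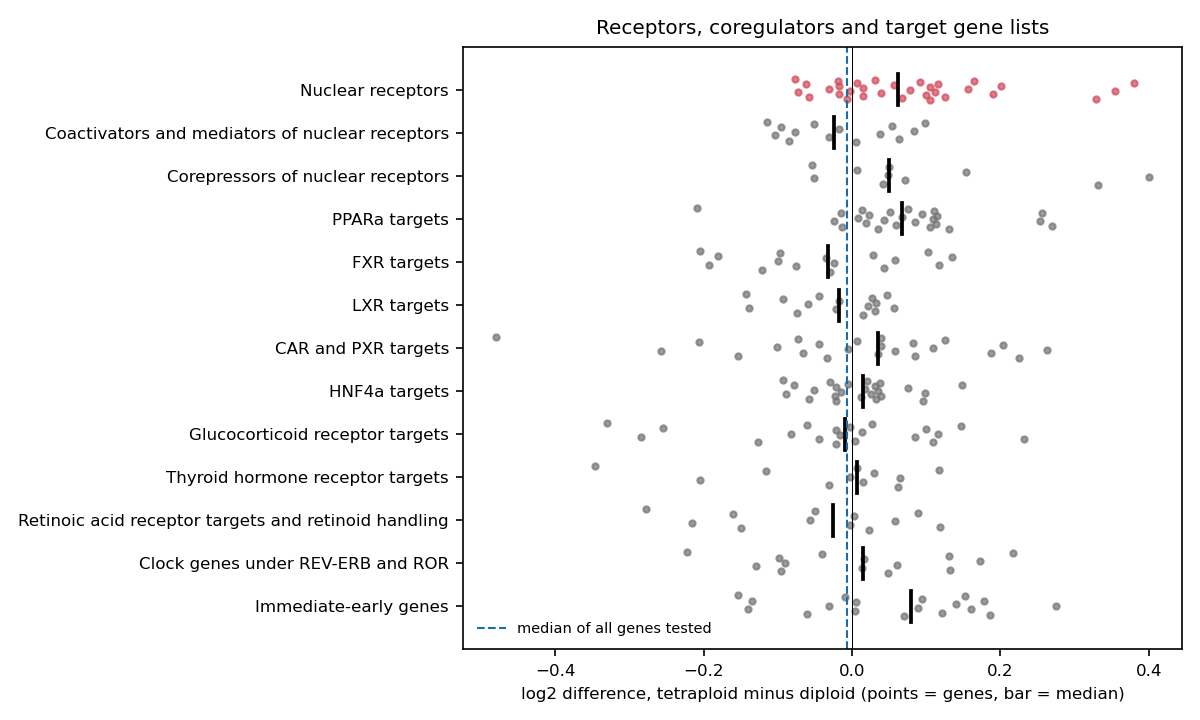
Log2 difference, tetraploid minus diploid (horizontal axis), of each tested gene in the receptor family (top row) and in 12 lists of coregulators and target genes. Each point is a gene, black bars are list medians and the dashed line is the median of all 9295 genes tested, -0.006. Medians lie between -0.03 and 0.08, and the farthest points are Cyp2b10 on the left and Lcor, close to the dim cutoff, on the right.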

How the data were processed

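The deposited values are intensities, 1 for each probe set on each array and not log-transformed, and the submitters' processing notes name RMA, which corrects background, equalises the arrays and summarises probes. Of its version and software, the labels say nothing. Equalising removes any difference in total RNA per cell, so each value is relative to the other transcripts of its array.

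The log2 of each intensity was taken. The arrays hold 22690 probe sets, of which 64 are controls, not used, 20380 had 1 gene symbol in the platform annotation, 691 several and 1555 none. The 25% of genes with the lowest mean were left out. The fractions were compared with limma 3.58.1 in R 4.3.3 (lmFit, eBayes, two-sided, Benjamini-Hochberg adjustment over 9295 genes, threshold 0.05), with ploidy as the single factor, and the procedure was tested on simulated data. The number of arrays limits the precision.

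The receptors, the 12 coregulator and target lists and the 6 marker lists were chosen with earlier results of these data known. In the lists other than the receptors, a gene absent under its symbol was looked up by synonym, which put Trh in place of Trf. Array values are given for 16 receptors of the liver and for those with an unadjusted p under 0.05 or fractions that did not overlap. They are also given for Rarb, which had the highest residual SD of the tested receptors. In each coregulator or target list the 3 genes with the smallest p-values were named, and in marker lists up to 2 of the brightest. Genes outside this rule are marked.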

Additional observations from a re-analysis of the deposited data

How the results depend on the processing

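The count of 0 receptors past an adjusted p of 0.05 held under all alternatives, which covered the filter, the choice and averaging of probe sets, centring, quantile normalization, a pseudocount of 16, array weights, a trended and robust variance, the replicate block and leaving out each array. The smallest adjusted p of a receptor was 0.244, with every probe set tested. The median difference of the receptors ran from 0.04 to 0.09 without 1 array each and from 0.04 to 0.08 otherwise. The next 2 counts were chosen after seeing the data. The count at an unadjusted limma p under 0.05 was 1 of 21 receptors with the dimmer 50% of genes left out, against 5.95% of all genes. With every probe set it was 6, where a receptor counted if any of its probe sets passed, and 7.37% of all probe sets tested did. Without 1 array each it was 1 to 3, against 4.07% to 6.87% of all genes. With the mean over probe sets it was 2, Nr2f2 and Nr3c1, against 6.84% of all genes. The 3 receptors given above were not among them and then differed by 0.12 (Nr2c2), 0.049 (Nr5a2) and 0.045 (Nr6a1). The count with fractions apart was 1, 6 and 3 to 7 in the first 3 of these settings. In the first 2 the shares were 12.4% of all genes and 13.6% of all probe sets tested. Leaving out an array raised the share over all genes to between 19.2% and 24.1%. The count was 5 without diploid replicate 1, 7 without diploid replicate 3 and 6 without tetraploid replicate 3. The corepressor median was 0.11 with the mean over probe sets and 0.14 with every probe set. Leaving out 1 array turned the sign of the median in every list other than corepressors and PPARa targets, with ranges from -0.25 to 0.19 for glucocorticoid receptor targets and from -0.034 to 0.14 for immediate-early genes, whose median was 0.037 with no filter on dim genes.

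Signs turned for several receptors, with differences near 0 or a wide spread between arrays. Hnf4a was at 0.19 with the mean over probe sets and 0.16 with probe sets of the more specific kinds, Rxra at -0.027 with the mean over probe sets, and Nr0b2 and Nr4a1 at 0.10 and 0.067 with array weights. Without 1 array each, the ranges were -0.10 to 0.064 for Hnf4a, -0.050 to 0.13 for Rxra, -0.39 to 0.38 for Nr0b2, -0.34 to 0.30 for Nr4a1, -0.060 to 0.20 for Nr1i3, -0.052 to 0.032 for Nr1h3, -0.17 to 0.32 for Nr1d1, -0.082 to 0.10 for Nr3c1 and -0.089 to 0.15 for Thrb. The cause was not tested.

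With the replicate number as a block, 0 receptors passed, while 9 of all genes passed in place of 0. At an unadjusted limma p under 0.05 there were 2 receptors, Nr2c2 and Nr6a1, against 5.91% of all genes. The labels do not say whether equal numbers belong together, and the arrays matched by number only in part. Deviations from the fraction means correlated at 0.57 for number 1 and at -0.20 for numbers 2 and 3 over 9295 genes. Tetraploid replicate 2 correlated best with diploid replicate 3, at 0.69, and tetraploid replicate 3 with diploid replicate 2, at 0.38. No crossed pairing was fitted.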
